A study of Mus musculus with 2 samples.

Results

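The tumour suppressor p53, encoded by Trp53, and 29 of its known target genes were read in single immune cells taken from the mouse colon during experimental colitis, a provoked bowel inflammation. The 30 genes were chosen by name, as rows of the deposited matrices that carry their symbols, and all 30 were found among the 32285 genes of the 2 libraries. Over all cells, 29 of the 30 had a UMI (unique molecular identifier, 1 captured transcript) in the library labelled WT and 30 in the library labelled CKO, and 29 had 20 or more UMIs over both. Eda2r was the exception.

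Both libraries came from immune cells that had entered the colon of colitic mice of the C57BL/6 strain, and both were prepared with a 10x kit that tags the 3′ ends of transcripts. The study's title speaks of RPA1 loss, RPA1 being a subunit of the complex that coats single-stranded DNA, and of T cell necroptosis, a lytic form of cell death. The label CKO itself names neither the gene nor the deleted exons nor the cells in which it was deleted, and the sources used here give neither the number, age or sex of the mice nor how colitis was induced. Each label has 1 library, so no comparison between them has a replicate check, and label, animal, preparation and library cannot be told apart. Where 2 values are given as a pair, the library labelled WT comes first.

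The libraries held 2972 and 11311 cell barcodes with 18627050 and 57740083 UMIs, of which 2924 and 10942 cells were used, and 6 barcode sequences occurred in both. Ptprc, the pan-leukocyte gene that marks the immune cells named by the label, had a UMI in 79.0 and 84.2% of cells. T-like cells numbered 363 and 603, B-like cells 1107 and 4984, plasma-like cells 201 and 467, neutrophil-like cells 183 and 1806, and monocyte and macrophage-like cells 20 and 694. The classes came from clusters made without the 30 genes and named from marker genes. Rpa1 was at 36.4 and 55.2 UMIs per 1000000 (CPM) in T-like cells, with 68 and 140 UMIs, so the library labelled CKO did not have the lower level. A 3′ count reads exons that a deletion may leave in place, so this value does not check the label.

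p53 is a transcription factor that is held low by the ubiquitin ligase Mdm2 and accumulates when DNA is damaged or replication stalls. Its targets halt the cell cycle, repair DNA, adjust metabolism, or lead to apoptosis, and Mdm2 is itself a target, which closes a negative feedback loop. Lymphocytes are among the cells most prone to p53-dependent death, while many of the same genes also respond to cytokines, differentiation and the stress of cell isolation without p53.

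p53 binds a pair of similar 10-base half-sites. The letters of the half-site were searched in the 250 bases before and 50 bases after each RefSeq start, in the GRCm38.p6 build, and the half-site pattern reads the same on both strands. Of the 25 members with such a window, 12 held at least 1 half-site (48.0%), against 2582 of 27025 genes in all (9.55%). A pair of half-sites separated by at most 13 bases occurred in 1 member, Cdkn1a, and in 20 genes in all (0.0740%). The p53 elements best known from experiments in several of these genes lie further upstream or in introns, outside the window, and a match of letters is a description and not a measured site. Perp, Pmaip1, Tnfrsf10b, Trp53inp1 and Zmat3 were not matched.

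The 250 bases before the start are printed for 4 members, Cdkn1a because it alone held the pair and because its level differed widely between cell classes, and Mdm2, Ccng1 and Gadd45a as further feedback and arrest genes with a half-site. Each runs 5′ to 3′ on the strand of its gene, with half-sites in capitals. The windows are chr17:29090729-29090978 (plus strand) for Cdkn1a, chr10:117710759-117711008 (minus strand) for Mdm2, chr11:40755287-40755536 (minus strand) for Ccng1 and chr6:67037408-67037657 (minus strand) for Gadd45a.
Cdkn1a: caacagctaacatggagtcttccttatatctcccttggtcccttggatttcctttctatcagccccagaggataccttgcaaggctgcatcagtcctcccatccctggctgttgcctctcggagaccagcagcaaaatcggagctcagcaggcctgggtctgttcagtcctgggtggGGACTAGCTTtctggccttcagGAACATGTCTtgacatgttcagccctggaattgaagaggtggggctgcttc
Mdm2: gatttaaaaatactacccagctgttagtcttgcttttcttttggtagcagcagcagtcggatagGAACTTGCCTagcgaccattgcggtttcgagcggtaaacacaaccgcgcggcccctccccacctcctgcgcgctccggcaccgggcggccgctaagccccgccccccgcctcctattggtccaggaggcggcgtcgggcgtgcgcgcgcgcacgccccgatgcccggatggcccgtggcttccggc
Ccng1: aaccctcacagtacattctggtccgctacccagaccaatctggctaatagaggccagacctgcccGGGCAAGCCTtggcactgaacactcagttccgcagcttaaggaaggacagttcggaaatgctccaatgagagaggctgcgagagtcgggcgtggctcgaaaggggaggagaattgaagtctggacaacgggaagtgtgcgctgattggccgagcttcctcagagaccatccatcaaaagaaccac
Gadd45a: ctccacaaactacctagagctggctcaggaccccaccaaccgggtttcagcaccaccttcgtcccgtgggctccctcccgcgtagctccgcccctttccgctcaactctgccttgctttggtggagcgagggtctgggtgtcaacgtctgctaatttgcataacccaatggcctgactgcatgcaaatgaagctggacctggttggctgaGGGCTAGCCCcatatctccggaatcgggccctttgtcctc
In Cdkn1a the half-sites began 73 and 51 bases before the start, with 12 bases between them. That window is of the upstream of its 2 RefSeq starts in the table, and the window of the other, chr17:29093519-29093818, held 0 half-sites. The single half-sites began 186 bases before the start in Mdm2, 185 in Ccng1 and 40 in Gadd45a. Only full matches to the half-site pattern were marked, so the near match directly after the second Cdkn1a half-site stays in lower case.

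In the GENCODE annotation of GRCm38, Cdkn1a spans chr17:29090976-29100727, Trp53inp1 chr4:11156431-11174379, Plk2 chr13:110395046-110400844 and Gadd45a chr6:67035096-67037457. Fas spans chr19:34290666-34327772, Btg2 chr1:134075170-134079120 and Plk3 chr4:117128655-117133963. The UMIs of a gene come mostly from the 3′ end of its transcripts and were not split by isoform.

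Levels by cell class were read as CPM, the UMIs of a gene per 1000000 UMIs summed over the cells of the class. All intervals are 95% intervals, exact Poisson for levels and exact conditional for ratios, and cover counting error only, since UMIs of 1 cell are not independent. The genes differed widely in where they were read. Cdkn1a, which encodes the cell cycle inhibitor p21, was at 1115 and 382 CPM in neutrophil-like cells and at 740 and 1128 CPM in monocyte and macrophage-like cells. It was at 634 and 717 CPM in cells like group 3 innate lymphoid cells (ILC3-like). In B-like cells Cdkn1a was at 8.96 and 11.5 CPM and in plasma-like cells at 10.8 and 9.60 CPM, the lowest classes of both libraries. These classes stood apart by more than the libraries did within any one of them. In plasma-like cells, plasma cell markers, antibody transcripts among them, summed to 523811 and 508540 CPM, which lowers the CPM of other genes there against other classes.

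Trp53inp1, which encodes a stress protein that takes part in autophagy and apoptosis, was highest in plasma-like cells, at 450 and 598 CPM, followed by ILC3-like cells at 361 and 423 CPM. Rps27l, which encodes a ribosomal protein paralog, was at 303 and 301 CPM in plasma-like cells and at 32.6 and 26.7 CPM in neutrophil-like cells. The sources used here do not say how reads shared between Rps27l and its close paralog Rps27 were assigned. Mdm2 was highest in monocyte and macrophage-like cells of both libraries, at 346 and 269 CPM.

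Neutrophil-like cells held the highest level of a further group. Btg2, an antiproliferative gene, was at 2000 and 1280 CPM there, and Gadd45a, a growth arrest and DNA repair gene, at 556 and 617 CPM. The death receptor gene Fas was at 346 and 295 CPM, and Plk3, a stress kinase gene, at 266 and 228 CPM. Trp53 itself was low in neutrophil-like cells, at 12.5 and 8.16 CPM from 5 and 43 UMIs, and in plasma-like cells, at 12.2 and 9.21 CPM. The plasma-like values are lowered by the large share of plasma cell markers given above. The class highest in these 4 targets was thus among the lowest in Trp53 mRNA. The p53 protein was not measured.

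**Figure D1:**
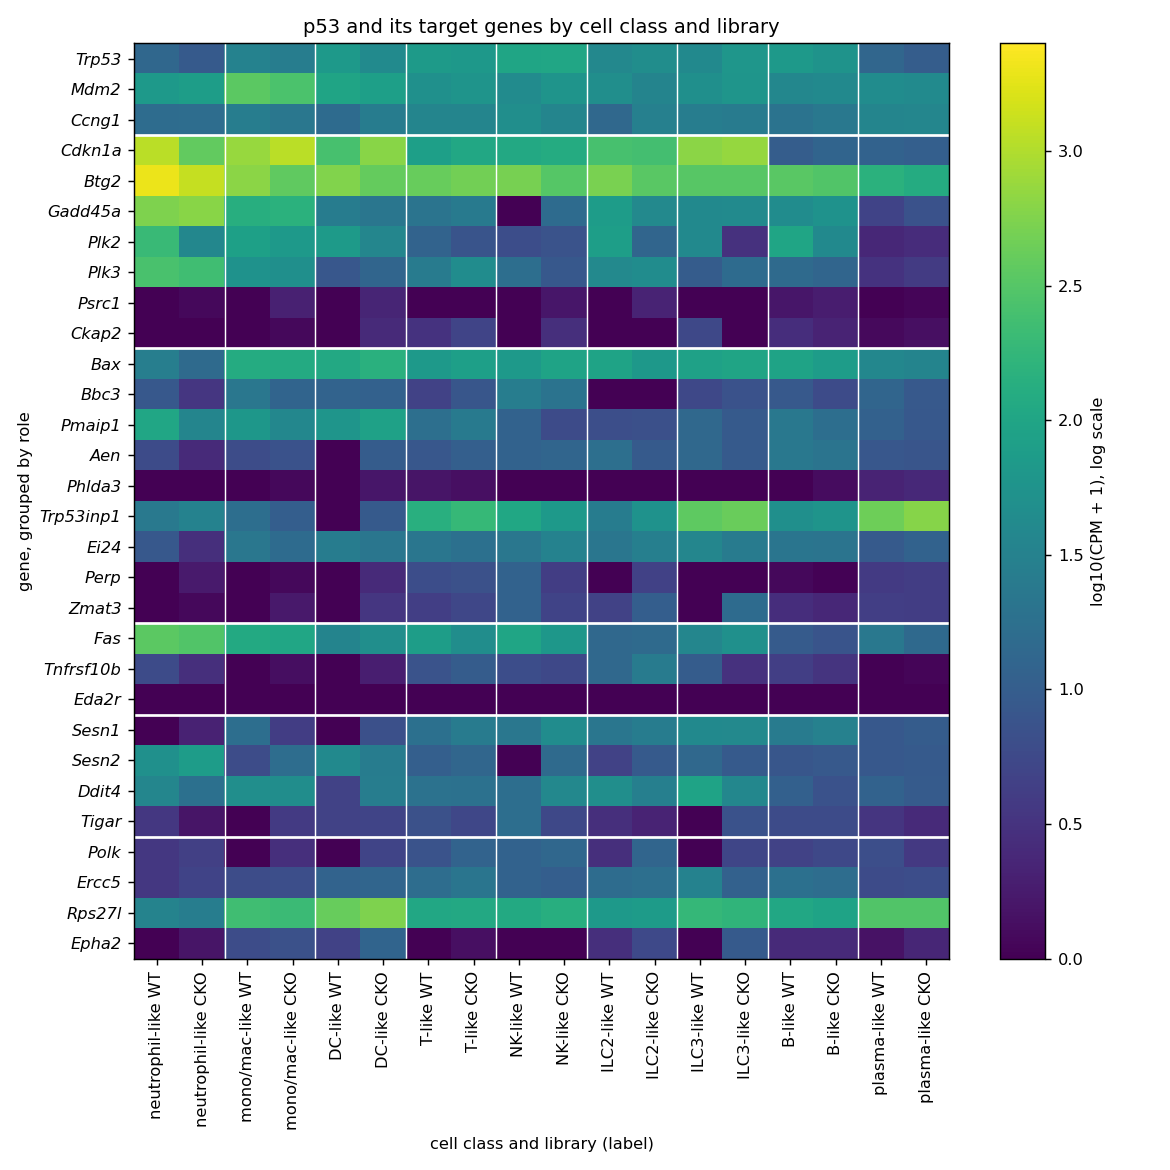
Levels of the 30 genes (rows, grouped by role) in 9 cell classes of both libraries (columns), coloured by log10(CPM + 1). Cdkn1a is bright in neutrophil-like and monocyte and macrophage-like columns and dark in B-like and plasma-like ones, and Trp53inp1 is brightest in plasma-like columns.

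A few members had their highest levels outside the immune classes. Perp, an apoptosis effector of epithelia, was at 187 and 76.7 CPM in epithelial-like cells, of which there were 3 and 15. Phlda3, an inhibitor of Akt signalling, was at 36.5 and 62.2 CPM in the 3 and 44 fibroblast-like cells and at 1.18 and 1.43 CPM in plasma-like cells. Eda2r, a receptor of the tumour necrosis factor family, had 2 UMIs among the named classes, both in fibroblast-like cells of the library labelled CKO.

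T cells are the cells named in the study's title. Of the 30 genes, 24 had 20 or more UMIs over both libraries in T-like cells and were read. At 1.5-fold or more, 3 of the 24 were higher in the library labelled CKO (Bbc3, Polk and Plk3), where 13.4% of all 8676 genes read were higher, and 2 were lower (Fas and Plk2), where 7.77% of all were lower. The median log2 ratio (CKO over WT) of the 24 was 0.32, against 0.07 over all genes read. With clusters of T-like cells weighted alike in both libraries, the median was 0.00, with 0 higher and 1 lower. The median and shares over all genes were not computed with that weighting, so these values have no background beside them. Such weighting leaves out clusters with few cells in either library, and here it kept 5 clusters, without the one led by Cd8a and Itgae.

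That weighting bears on a mix of subsets that differed between the libraries. Naive T-like cells made up 42.4 and 15.8% of T-like cells, CD4 T-like cells 11.0 and 23.7%, and a subset led by Cd8a and Itgae 0.551 and 10.1% (2 and 61 cells). Without the Cd8a Itgae cluster the median was 0.15. Among T-like cells, summed neutrophil markers were at 152 and 374 CPM, and the plasma cell transcript Igkc was at 2656 and 865 CPM. Their part in the ratios was not tested.

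The feedback genes differed little between the T-like cells of the libraries. Trp53 was at 69.6 and 64.7 CPM, a log2 ratio of -0.11 (interval -0.45 to 0.24). Mdm2 was at 49.3 and 57.2 CPM (0.22, interval -0.17 to 0.61). Ccng1, a cyclin gene that feeds back on Mdm2, was at 34.3 CPM in both (0.00, interval -0.48 to 0.49). All 3 intervals included 0, and that of Ccng1 reached ratios of about the same size either way.

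Among arrest genes, Plk3 had the largest ratio with an interval above 0 in T-like cells. Plk3 was at 24.6 CPM in the library labelled WT (46 UMIs) and 44.2 CPM in that labelled CKO (112 UMIs), a log2 ratio of 0.84 (interval 0.34 to 1.37). With clusters weighted alike it was 0.54. Cdkn1a was at 81.9 and 107 CPM (153 and 272 UMIs), a log2 ratio of 0.39 (interval 0.10 to 0.68), which was 0.03 with clusters weighted alike and 0.92 with cells called by their own markers. Btg2 was at 411 and 469 CPM, a log2 ratio of 0.19 (interval 0.06 to 0.32), and it was -0.03 with clusters weighted alike. Of the 1188 Btg2 UMIs under the label CKO, 1 cell held 40. Gadd45a was at 19.3 and 24.1 CPM (0.32), and Plk2, a kinase gene of the same family as Plk3, at 11.2 and 6.71 CPM (-0.75). The intervals of Gadd45a and Plk2 included 0.

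Of 7 genes of apoptosis inside the cell that were read, 1 was 1.5-fold higher, where 13.4% of all genes were, and 0 were lower, where 7.77% were. Their median log2 ratio was 0.40. Trp53inp1 was at 138 and 191 CPM (257 and 485 UMIs), a log2 ratio of 0.48 (interval 0.25 to 0.70), and kept a ratio of 0.32 to 0.59 over 10 alternative settings. Bax, which permeabilizes mitochondria, was at 65.3 and 82.0 CPM (0.33, interval 0.00 to 0.66). Its upstream activators had few UMIs. Bbc3, encoding Puma, had 7 and 18 UMIs (3.75 and 7.10 CPM, log2 ratio 0.92), and Pmaip1, encoding Noxa, had 31 and 60 UMIs (16.6 and 23.7 CPM, 0.51). Aen, an apoptosis nuclease gene, was at 7.49 and 9.86 CPM, Ei24 at 20.9 and 17.0 CPM and Perp at 5.35 and 5.92 CPM. All 5 of these intervals included 0.

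Fas stood on the other side. In T-like cells the receptor gene was at 76.0 CPM under the label WT (142 UMIs) and 45.4 CPM under the label CKO (115 UMIs), a log2 ratio of -0.74 (interval -1.11 to -0.38). Within naive T-like cells, however, Fas was at 110 and 111 CPM, and with clusters weighted alike the ratio was -0.26. In CD4 T-like cells it was at 90.1 and 48.6 CPM (17 and 27 UMIs, -0.89, interval -1.82 to 0.08). Tnfrsf10b, the other death receptor gene read, was at 6.42 and 8.68 CPM (0.43, interval -0.64 to 1.58).

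None of the 4 metabolic and stress genes passed 1.5-fold in T-like cells, where 13.4% of all genes read were higher and 7.77% lower. Sesn1, which encodes a restraint on mTORC1, was at 17.1 and 25.2 CPM (0.56, interval -0.07 to 1.22), and its relative Sesn2 at 9.64 and 12.2 CPM. Ddit4, another restraint on mTORC1, was at 18.2 and 17.4 CPM, and Tigar, a glycolysis regulator gene, at 5.89 and 4.34 CPM. Of the remaining genes, Polk, a polymerase that bypasses DNA lesions, had 12 and 28 UMIs (6.42 and 11.0 CPM, log2 ratio 0.78, interval -0.24 to 1.89). Ercc5, a nuclease of nucleotide excision repair, was at 15.5 and 20.1 CPM, and Rps27l at 108 and 111 CPM.

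**Figure D2:**
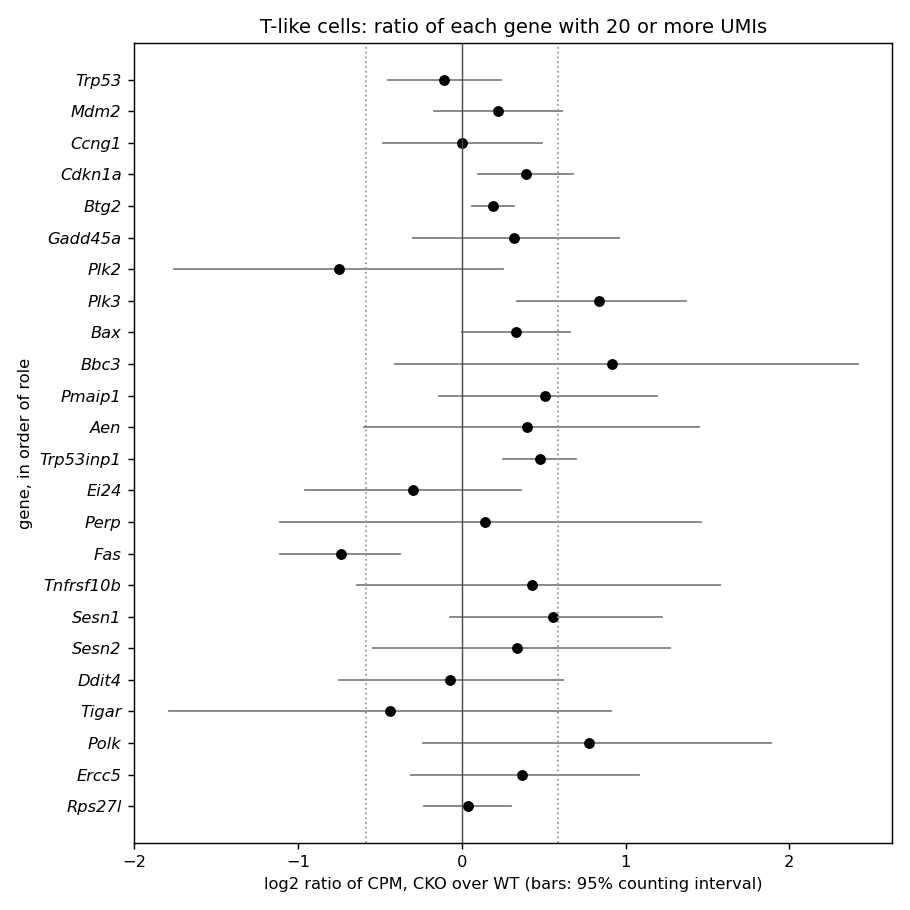
Log2 ratio of CPM in T-like cells, CKO over WT, for the 24 genes read (points, bars are 95% counting intervals, dotted lines mark 1.5-fold). Plk3, Trp53inp1, Cdkn1a and Btg2 lie above 0 with their bars, and Fas lies below 0 with its bar.

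The other 6 genes had fewer than 20 UMIs in T-like cells. Zmat3, an RNA-binding protein gene, had 6 and 11 UMIs, Ckap2 had 4 and 10, Phlda3 had 1 and 1, and Epha2, an ephrin receptor gene, had 0 and 1. Psrc1 and Eda2r had 0 UMIs in both, which allows levels of up to 1.61 and 1.18 CPM at a floor of 3 counts.

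Subsets of T-like cells differed in Cdkn1a by more than the libraries did. In the library labelled WT, Cdkn1a was at 27.3 CPM in naive, 41.2 CPM in Ikzf2 Cd7, 80.6 CPM in CD8, 238 CPM in CD4 and 239 CPM in gamma-delta T-like cells. In that labelled CKO, the same subsets were at 52.1, 75.8, 62.8, 176 and 248 CPM. The log2 ratio was 0.93 in naive cells (interval -0.14 to 1.97) and 0.88 in the Ikzf2 Cd7 subset (interval 0.11 to 1.71), and the difference between subsets was not tested. The CD4 and CD8 subsets were lower in the library labelled CKO, with intervals that included 0.

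Trp53inp1 and Plk3 were also read by subset. Trp53inp1 was at 121 and 198 CPM in naive T-like cells (89 and 57 UMIs, log2 ratio 0.70, interval 0.20 to 1.20). Plk3 was at 13.6 and 48.6 CPM there from 10 and 14 UMIs (1.83, interval 0.56 to 3.16), and in CD8 T-like cells at 14.7 and 41.9 CPM from 4 and 16 UMIs (1.51, interval -0.12 to 3.55). In CD4 T-like cells Trp53inp1 was at 164 and 166 CPM and Plk3 at 63.6 and 54.0 CPM. Whether the subsets differ in these ratios was not tested.

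**Figure D3:**
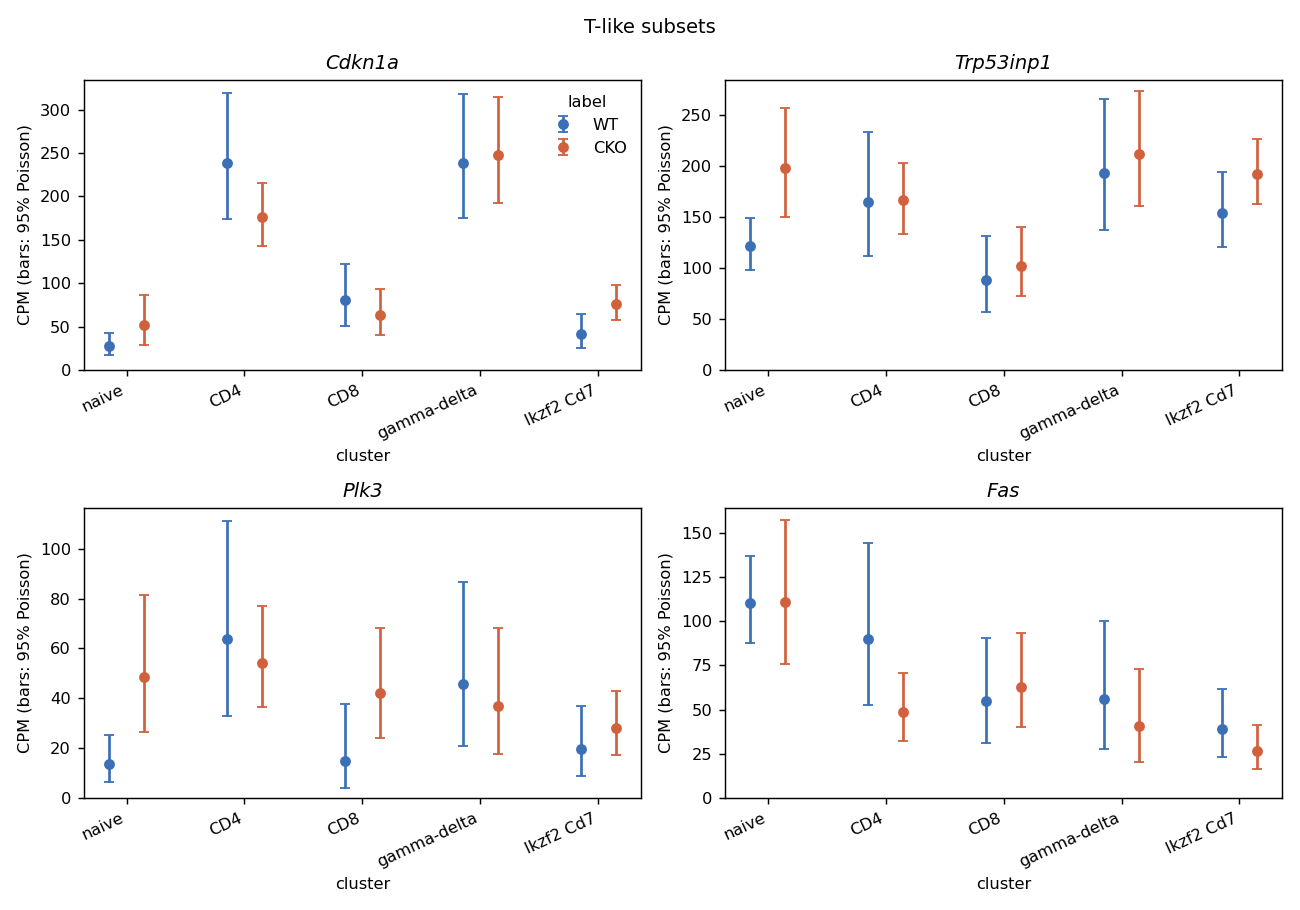
CPM of Cdkn1a, Trp53inp1, Plk3 and Fas in 5 subsets of T-like cells (points by library label, bars are 95% Poisson intervals). Cdkn1a is highest in the CD4 and gamma-delta subsets under both labels, and the points of Fas in naive cells lie at 110 and 111 CPM.

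A cluster of dividing lymphoid cells was left unnamed and held 11 and 81 cells. All 11 cells of the library labelled WT and 50 of the 81 of that labelled CKO had a UMI of Cd3d, Cd3e or Cd3g, while 0 and 29 had a UMI of Ncr1, a natural killer cell gene. Of 15 genes read in the cluster, 8 were 1.5-fold or more higher in the library labelled CKO, where 23.9% of all genes read were higher, and 1 was lower (Rps27l), where 16.5% were. Among the cells with a Cd3 UMI, 7 of 12 genes read were higher, where 23.8% of all genes were, and 1 was lower, where 15.5% were.

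In those Cd3-positive dividing cells Trp53inp1 had the largest ratio. It was at 21.8 CPM from 6 UMIs and at 155 CPM from 89 UMIs, a log2 ratio of 2.83 (interval 1.65 to 4.31). Cdkn1a was at 58.1 and 129 CPM from 16 and 74 UMIs (1.15, interval 0.35 to 2.02), and Btg2 at 156 and 280 CPM (0.84, interval 0.35 to 1.36). Rps27l went the other way, at 450 and 210 CPM (-1.10, interval -1.47 to -0.73). Trp53 was at 90.8 and 97.3 CPM and Mdm2 at 50.8 and 53.8 CPM. The library labelled WT contributed 11 cells with 275406 UMIs to each of these values and that labelled CKO 50 cells with 575759 UMIs, so depth per cell differed. T subsets were not separated among them.

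Other genes of the pathway were read from lists made alongside the 30. Of 20 further p53 targets, 12 were read in T-like cells, of which 4 were 1.5-fold or more higher, where 13.4% of all genes were, and 0 were lower, where 7.77% were. Their median log2 ratio was 0.32. The adapter of the apoptosome, Apaf1, was at 36.4 and 67.8 CPM (68 and 172 UMIs, 0.90, interval 0.49 to 1.33). Ddb2, a sensor of damaged DNA, was at 5.89 and 13.8 CPM (1.23, interval 0.22 to 2.36). Of 21 regulators and cofactors of p53, 16 were read, with 1 higher, 1 lower and a median of -0.07. Markers of dividing cells, summed over 10 genes, were at 38.5 and 81.3 CPM in T-like cells, and their part in these ratios was not tested.

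B-like cells held the most UMIs of the classes, and there the median of the 30 genes lay below 0. Of 26 read, 0 were 1.5-fold or more higher, where 5.16% of all 10672 genes were, and 3 were lower (Plk2, Ddit4 and Bbc3), where 7.47% of all were. The median log2 ratio was -0.17, against -0.04 over all genes. Plk2 carried the largest difference. It was at 98.2 CPM (504 UMIs) and 40.7 CPM (675 UMIs), a log2 ratio of -1.27 (interval -1.44 to -1.10). The 10 B-like clusters with Plk2 UMIs in both libraries all had the lower level under the label CKO, with log2 ratios from -0.22 to -1.70. Thinned to 1000 UMIs per cell, 8.31 and 4.49% of cells had a Plk2 UMI, and without thinning 23.8 and 9.83%, at median depths of 4058.0 and 2944.5 UMIs. In plasma-like cells, thinned alike, the shares were 0 of 200 cells and 0.215%, at median depths of 21085 and 16595 UMIs.

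Plk2 is also an immediate early gene of serum and stress responses, and other genes of that kind were lower beside it. Of 16 immediate early and dissociation genes, 0 were 1.5-fold or more higher in B-like cells and 9 were lower, where 5.16 and 7.47% of all genes were, with a median of -0.67. Fos among them was at 439 and 164 CPM. Their part in the ratio of Plk2 was not tested.

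Smaller differences in B-like cells rested on many UMIs. Trp53 was at 67.4 and 55.2 CPM (346 and 915 UMIs, -0.29, interval -0.47 to -0.11), and Bax at 91.7 and 75.9 CPM (-0.27, interval -0.43 to -0.12). Gadd45a was at 43.8 and 53.2 CPM (0.28, interval 0.07 to 0.50). Btg2 was at 336 and 302 CPM and Rps27l at 109 and 93.3 CPM, both with intervals below 0. Bbc3 had 40 and 83 UMIs, a log2 ratio of -0.64, and Ddit4 was at 10.1 and 6.27 CPM (52 and 104 UMIs), a log2 ratio of -0.69. Both of these intervals lay below 0 as well. With clusters weighted alike the ratio was -0.16 for Bbc3 and -0.42 for Ddit4, and both were then short of 1.5-fold. In contrast, Mdm2, Ccng1 and Cdkn1a had intervals that included 0. S100a8, a neutrophil transcript, was at 11.3 and 84.5 CPM in B-like cells.

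Dividing cells of the B lineage, an unnamed cluster of 56 and 78 cells, differed most in Fas. It was at 66.2 CPM (85 UMIs) in the library labelled WT and 9.36 CPM (17 UMIs) in that labelled CKO, a log2 ratio of -2.82 (interval -3.67 to -2.06). Of 18 genes read there, 0 were 1.5-fold or more higher, where 12.0% of all genes were, and 4 were lower (Cdkn1a, Mdm2, Pmaip1 and Fas), where 18.1% were. Mdm2 was at 80.2 and 45.2 CPM (-0.83, interval -1.27 to -0.40). Trp53inp1 was at 212 and 250 CPM and Rps27l at 479 and 556 CPM.

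In plasma-like cells, which secrete antibodies, Trp53inp1 had the most UMIs of the 30 genes and was higher under the label CKO. It had a UMI in 98.0 and 98.1% of these cells and was at 450 CPM (1912 UMIs) and 598 CPM (4613 UMIs), a log2 ratio of 0.41 (interval 0.33 to 0.49). Over 8 alternatives the ratio ran from 0.35 to 0.52. None of these weighted clusters alike, and a cluster led by Ighv7-3 held 14 and 93 of the plasma-like cells. Of 23 genes read, 1 was 1.5-fold or more higher (Gadd45a), where 6.87% of all genes were, and 4 were lower (Bbc3, Fas, Polk and Tigar), where 9.56% were. The median log2 ratio was -0.09, against -0.08 over all genes.

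The genes past 1.5-fold in plasma-like cells had low levels. Fas was at 21.9 and 13.4 CPM (93 and 103 UMIs, -0.71, interval -1.13 to -0.29). Bbc3 was at 12.0 and 7.91 CPM (-0.60), and Polk at 5.65 and 2.72 CPM from 24 and 21 UMIs (-1.05). Gadd45a had 16 and 48 UMIs (3.76 and 6.22 CPM, 0.73) and Tigar 10 and 12 (2.35 and 1.56 CPM, -0.60), both with intervals that included 0. Btg2 was at 148 and 123 CPM, and Rps27l was level at 303 and 301 CPM (-0.01, interval -0.11 to 0.09).

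**Figure D4:**
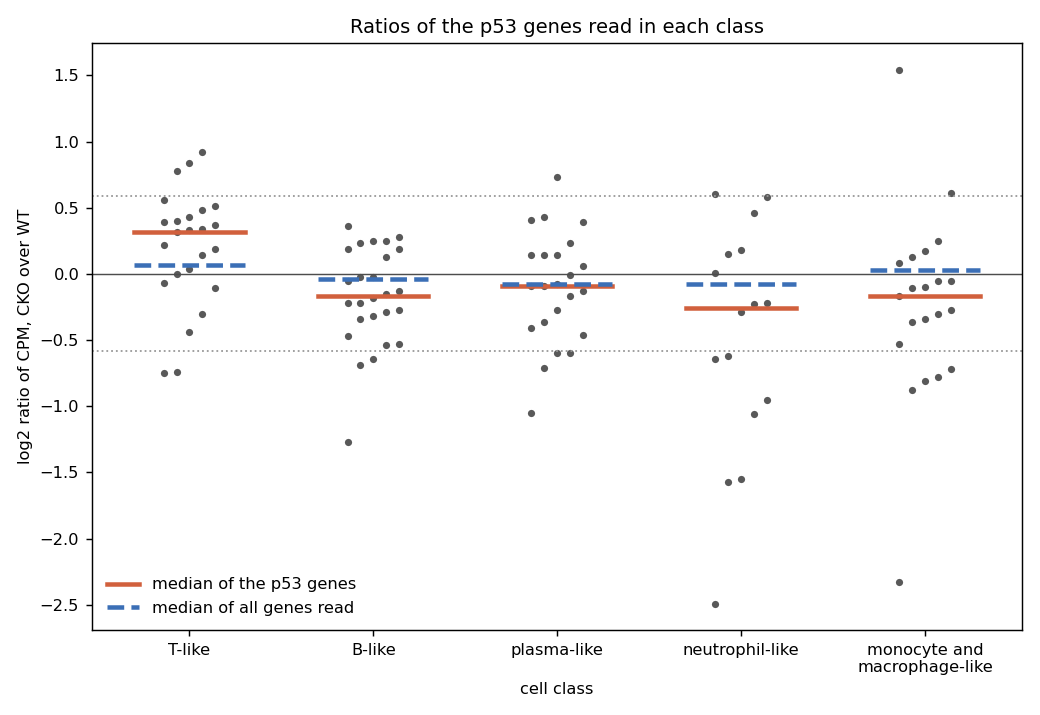
Log2 ratio of CPM, CKO over WT, of each of the 30 genes read in 5 cell classes (points), with the median of these genes (solid bar), the median of all genes read (dashed bar) and 1.5-fold (dotted lines). The solid bar lies above the dashed one in T-like cells (0.32 and 0.07) and below it in neutrophil-like cells (-0.26 and -0.08).

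Neutrophil-like cells had lower levels of Plk2, Cdkn1a, Pmaip1 and Btg2 under the label CKO, while Gadd45a, Fas and Plk3 differed little over the class as a whole. Of 16 genes read, 1 was 1.5-fold or more higher (Ercc5), where 23.1% of all 6295 genes were, and 7 were lower, where 26.9% of all were. The 7 were Trp53, Cdkn1a, Bax, Pmaip1, Plk2, Btg2 and Ddit4, and the median of the 16 was -0.26, against -0.08 over all genes. The class held 183 and 1806 cells, with totals of 398925 and 5272200 UMIs, so counts in the library labelled WT limited most values.

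Plk2 in neutrophil-like cells was at 203 CPM (81 UMIs) and 36.0 CPM (190 UMIs), a log2 ratio of -2.49 (interval -2.88 to -2.10). Cdkn1a was at 1115 CPM (445 UMIs) and 382 CPM (2014 UMIs), -1.55 (interval -1.69 to -1.39). At 1000 UMIs per cell, with 22 and 76 shallower cells left out, 49.1 and 23.6% of cells had a Cdkn1a UMI. Without thinning, over all 183 and 1806 cells, 57.4 and 37.4% had one. B-like cells, where Cdkn1a was near its lowest, had 1.10 and 1.28% by the same thinning. The shares of neutrophil-like cells thus stood above those of one of the classes with the lowest level.

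The makeup of neutrophil-like cells differed between the libraries. A cluster led by Ngp and Mmp8, genes of immature neutrophils, held 0 and 361 cells, and a cluster led by Cxcl10 and Rsad2 held 8 and 346. In the 4 clusters with cells of both libraries, Cdkn1a was lower under the label CKO in each, with log2 ratios from -0.76 to -1.35 and intervals below 0, and its level in the Ngp Mmp8 cluster was 208 CPM. With those 4 clusters weighted alike, and the Ngp Mmp8 cluster left out, the ratio was -1.17. Plk2 was also lower in all 4, from -0.77 to -3.24. Markers of other cells moved with the label in this class. Summed plasma cell markers were at 7806 and 2916 CPM, B cell markers at 160 and 65.2 CPM and T cell markers at 62.7 and 16.7 CPM, and Igkc was at 3550 and 1152 CPM. Their part in the ratios was not tested.

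Btg2 and Pmaip1 also differed less between the libraries with clusters weighted alike, and the part of the cluster makeup in their ratios was not tested. Btg2 was at 2000 and 1280 CPM (798 and 6746 UMIs, -0.64, interval -0.75 to -0.54) and its ratio was -0.27 with clusters weighted alike. Pmaip1 was at 103 and 34.5 CPM (41 and 182 UMIs, -1.57, interval -2.07 to -1.05) and -0.59 with clusters weighted alike. Ddit4 was at 35.1 and 16.9 CPM from 14 and 89 UMIs (-1.06, interval -1.88 to -0.13). Bax was at 27.6 and 14.2 CPM from 11 and 75 UMIs (-0.95), Trp53 had 5 and 43 UMIs (-0.62), and Ercc5 had 1 and 20 UMIs (2.51 and 3.79 CPM, 0.60), all with intervals that included 0.

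Not every p53 target was low. Gadd45a, with 222 and 3255 UMIs, was at 556 and 617 CPM (0.15, interval -0.05 to 0.35). Fas was at 346 and 295 CPM (-0.23) and Plk3 at 266 and 228 CPM (-0.22), and both intervals included 0. By cluster Gadd45a ran from -0.34 in the Ccl3 Asprv1 cluster to 0.84 in the Cxcl10 Rsad2 cluster. Fas was 1.5-fold or more lower in the Csf3r Hdc cluster and 1.5-fold or more higher in the Cxcl10 Rsad2 cluster. The latter held 8 cells of the library labelled WT. Immediate early and dissociation genes were lower as a list in neutrophil-like cells, with 0 higher and 10 lower of 16, where 23.1 and 26.9% of all genes were. Their median was -0.89 and their sum 21104 and 12085 CPM. Their part in the ratios of Cdkn1a, Plk2 and Btg2 was not tested.

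**Figure D5:**
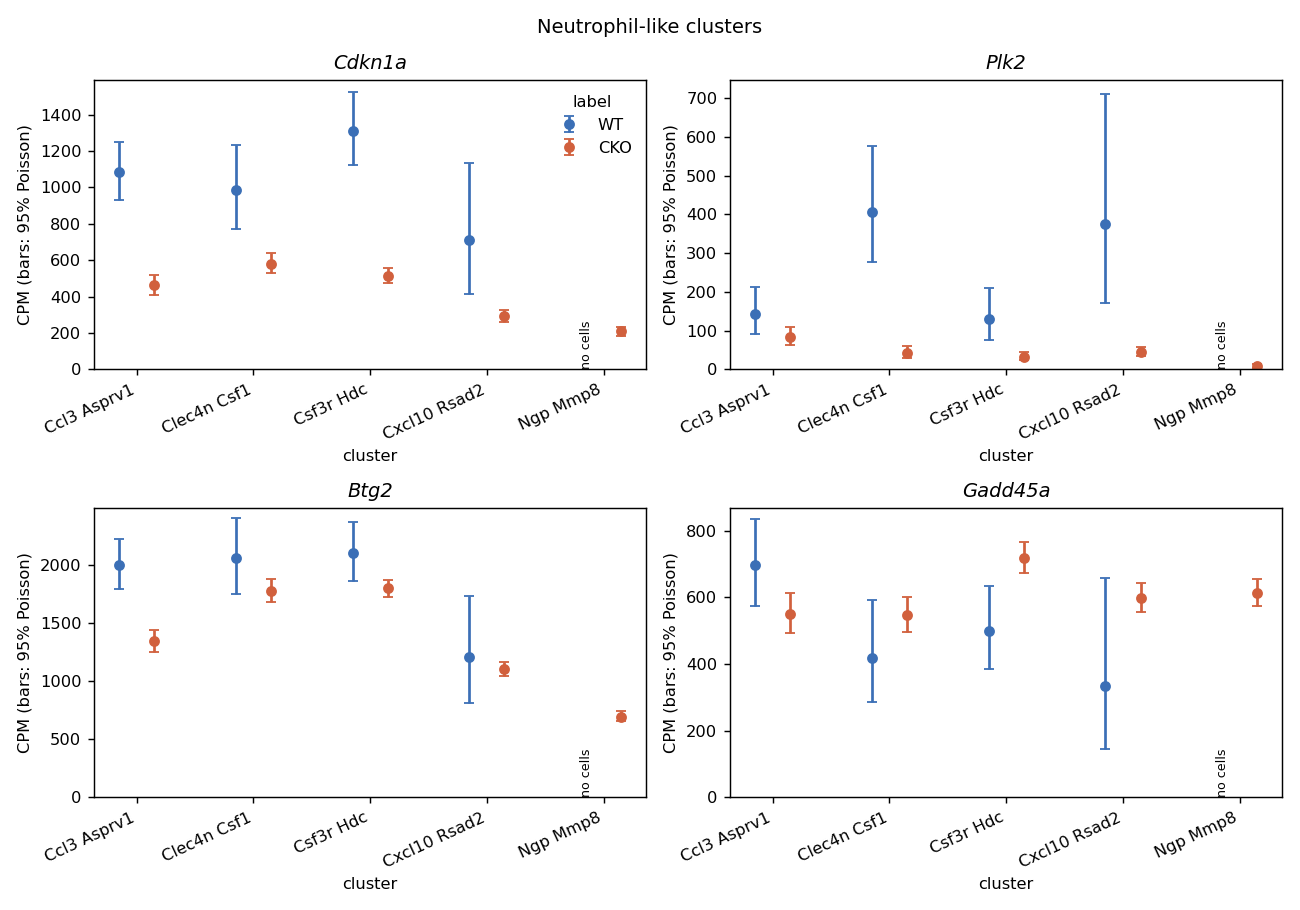
CPM of Cdkn1a, Plk2, Btg2 and Gadd45a in 5 clusters of neutrophil-like cells (points by library label, bars are 95% Poisson intervals). Cdkn1a and Plk2 lie lower under the label CKO in the 4 clusters with cells of both libraries, and the Ngp Mmp8 cluster has no cells under the label WT.

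Monocyte and macrophage-like cells gave Cdkn1a the opposite direction. It was at 740 CPM (141 UMIs) and 1128 CPM (6506 UMIs), a log2 ratio of 0.61 (interval 0.37 to 0.86). By cluster it was 1.05 in the cluster led by Nos2, 0.66 in the cluster led by Chil3 and Vcan and -0.16 in the cluster led by C1q genes, the last with an interval that included 0. The library labelled WT held 20 of these cells, so each of its values rests on few cells. In those cells T cell markers summed to 362 CPM, against 63.3 CPM under the label CKO, and their part in the ratios was not tested.

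Of 21 genes read in monocyte and macrophage-like cells, 2 were 1.5-fold or more higher (Cdkn1a and Sesn2), where 26.4% of all genes were, and 5 were lower (Bbc3, Pmaip1, Trp53inp1, Sesn1 and Btg2), where 20.3% were. The median was -0.17, against 0.03 over all genes. Btg2 was at 645 and 368 CPM (123 and 2124 UMIs, -0.81, interval -1.07 to -0.54). It was lower in each of the 3 clusters with cells of both libraries, where the library labelled WT held 11, 6 and 3 cells. Without cells with a UMI of Mki67 or Top2a, which were 40.0 and 35.7% of the class, the Btg2 ratio was -0.34, short of 1.5-fold. Mdm2 was at 346 and 269 CPM (66 and 1554 UMIs, -0.36, interval -0.72 to 0.02). A single cell held 21 of the 66 Mdm2 UMIs of the library labelled WT.

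The remaining genes past 1.5-fold had 12 or fewer UMIs in the library labelled WT. Pmaip1 had 12 and 211 UMIs (63.0 and 36.6 CPM, -0.78), Bbc3 had 4 and 66 (21.0 and 11.4 CPM, -0.88) and Trp53inp1 had 3 and 55 (15.7 and 9.53 CPM, -0.72). Sesn1 had 3 and 18 UMIs (15.7 and 3.12 CPM, -2.33) and Sesn2 had 1 and 88 (5.25 and 15.3 CPM, 1.54). All 5 intervals included 0.

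Members with and without a p53 half-site in the promoter window were set side by side as a description. In T-like cells, 11 genes with a half-site had a median log2 ratio of 0.32 and 9 without had 0.19. In neutrophil-like cells, 7 with a half-site had a median of -0.29 and 7 without had -0.23, the former including Cdkn1a and the latter Plk2. In B-like cells the medians were 0.06 over 12 genes and -0.18 over 10. The ranges of both sets overlapped in every one of these classes.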

How the data were processed

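The deposited values are raw UMI counts by gene and barcode, made with Cell Ranger 6.0.1 per the file headers. The submitters' processing notes list version 5.0.0 of that program, Seurat 3.2.3 and the mm10 build. The sources used here do not say how barcodes were called. Cells with at least 200 genes and at most 20% mitochondrial UMIs were kept, and Scrublet marked 1 and 213 doublets (0.0342 and 1.91%, against 2.34 and 8.92% expected), which were left out. Both libraries were clustered together with scanpy, without batch correction and without the 30 genes among the variable genes (2000 genes, 30 components, 15 neighbours, Leiden, seed 0). Clusters were named from fixed markers, and those with leading genes of several classes were kept apart as mixed (221 and 692 cells) or left unnamed (618 and 547), a choice made after seeing them.

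UMIs were summed by class and library and scaled to CPM. A gene was read at 20 or more UMIs over both libraries and counted at 1.5-fold. With 1 library per label there was no test. A gene at 0 in 1 library counted as past the fold, in the shares over all genes too. For thinned shares each cell was drawn down to 1000 UMIs. The ratio step was tested on simulated data. Values are given for every gene read in T-like cells, and elsewhere for those at 1.5-fold and those with most UMIs. Further genes, subsets and clusters were chosen after their values were seen. The members and lists were chosen with earlier results of these data known. Promoter sequences are from RefSeq.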

Additional observations from a re-analysis of the deposited data

Results flagged for a closer look

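Cdkn1a differed between the libraries in opposite directions in 2 myeloid classes. Its log2 ratio (CKO over WT) was -1.55 in the neutrophil-like class and 0.61 among monocytes and macrophages, each with a counting interval that did not include 0. The difference between the classes was not tested, since each label has 1 library. The library labelled WT held 20 monocyte and macrophage-like cells and 183 neutrophil-like cells.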

How the results depend on the processing

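Median ratios were compared with the counting interval of the gene or genes in the middle of the order, and stayed within it under every alternative tried. That interval held the T-like median both at 0.32 and, with clusters weighted alike, at 0.00, so it does not show that the medians are stable. Of the single ratios, 291 stayed within their counting interval, 21 moved outside it, and 5 that were past 1.5-fold changed sign. The 5 were Gadd45a in plasma-like cells (-0.17) and Bbc3 in monocyte and macrophage-like cells (0.83) with cells called by their own markers, Trp53 in neutrophil-like cells (0.01) and Bbc3 in monocyte and macrophage-like cells (0.15) with clusters weighted alike, and Trp53inp1 in monocyte and macrophage-like cells (0.10) with each cell weighted alike. Among ratios short of 1.5-fold, sign also changed for Btg2 in T-like cells with clusters weighted alike (-0.03), and for Mdm2 in monocyte and macrophage-like cells without the top cell of the gene (0.10) and with cells called by their own markers (0.16). The median of the genes in monocyte and macrophage-like cells, -0.17, was 0.08 without the top cell of each gene. The causes were not tested.

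Counts of 1.5-fold genes are small and moved often. The shares over all genes were not computed under the alternatives given here and in the next paragraph. The counts therefore cannot be set against a background and are given only to show how far they moved. With Scrublet doublets kept, T-like cells had 5 higher and 1 lower, B-like cells 1 higher, plasma-like cells 5 higher and 1 lower, neutrophil-like cells 0 higher, and monocyte and macrophage-like cells 1 higher. With cells called by their own markers, T-like cells had 1 higher, B-like cells 5 lower, plasma-like cells 0 higher, neutrophil-like cells 2 higher, and monocyte and macrophage-like cells 6 higher. With clusters weighted alike (for the neutrophil-like class chosen after seeing the data), T-like cells had 0 higher and 1 lower, B-like cells 1 higher, and neutrophil-like cells 3 higher and 4 lower. With each cell weighted alike, B-like cells had 6 lower, neutrophil-like cells 0 higher and 4 lower, and monocyte and macrophage-like cells 4 higher. Without the top cell of each gene, neutrophil-like cells had 2 higher, and monocyte and macrophage-like cells 6 higher and 2 lower. Scaled to the median ratio of all genes, plasma-like cells had 2 lower and neutrophil-like cells 3 higher. At up to 10% mitochondrial UMIs, neutrophil-like cells had 0 higher. Without cells with a UMI of Mki67 or Top2a, plasma-like cells had 2 higher and 2 lower, and monocyte and macrophage-like cells 4 higher and 8 lower.

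At 50 or more UMIs, T-like cells had 1 higher and 1 lower, plasma-like cells 2 lower, and neutrophil-like cells 0 higher. At 1 or more UMIs, T-like cells had 5 higher, B-like cells 1, plasma-like cells 5, neutrophil-like cells 6 higher and 12 lower, and monocyte and macrophage-like cells 10 higher. At 2-fold, T-like cells had 0 higher and 0 lower, B-like cells 1 lower, plasma-like cells 0 higher and 1 lower, neutrophil-like cells 0 higher and 4 lower, and monocyte and macrophage-like cells 1 higher and 1 lower. Among alternatives chosen after seeing the data, adding dividing cells with a Cd3 UMI gave T-like cells 6 higher, and leaving out the Cd8a Itgae cluster gave 1 lower. No paired analysis was possible because each label has 1 library. The 398925 UMIs of neutrophil-like cells and 190599 of monocyte and macrophage-like cells in the library labelled WT limit what those classes can show.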

Other observations

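Dendritic cell-like cells numbered 26 and 341. Cdkn1a was at 259 CPM (71 UMIs) and 617 CPM (2012 UMIs) in them, a log2 ratio of 1.25 (interval 0.91 to 1.61), on the same side of 0 as in monocyte and macrophage-like cells. Btg2 was at 573 and 399 CPM (-0.52, interval -0.76 to -0.28), and Plk2 at 69.4 and 35.6 CPM (-0.96, interval -1.67 to -0.18). In natural killer-like cells, 32 and 298 in number, Cdkn1a was at 111 and 122 CPM (0.13, interval -0.52 to 0.86) and Btg2 at 502 and 319 CPM (-0.65, interval -0.97 to -0.32).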
